A study of Oryctolagus cuniculus with 30 samples.

Results

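A set of 55 array probes fell when a rabbit ear wound had just closed over and was up again by day 5, with and without a film cover. The choice asked for a rise by day 5, not for a return to the unwounded level. They were chosen from 14558 probes of the UF_Ocu_AF name class, out of 23369 probes on the array. The choice was made on log2 values of the authors' series table, averaged within each group. A member had a highest group mean of at least 9, lay at least 1.5 lower at closure than in unwounded skin, and lay at least 1.5 above closure at day 5 in both arms. The covered and uncovered means of a member differed by less than 0.5 at day 5 and by less than 0.8 at day 3. Of the 7795 probes of this class that reached a mean of 9, 312 fell by 1.5 or more at closure. Of these, 131 regained as much in both arms by day 5, 91 of them passed the day 5 bound, and 55 passed the day 3 bound as well. A further 129 of the 312 regained 1.5 in neither arm, 19 in the uncovered arm alone and 33 in the covered arm alone. Among the 8811 probes of the other name classes, 17 met the same bounds.

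The ear epidermis of New Zealand White rabbits, all female and of an age the labels leave out, was measured on 30 single-colour arrays, 1 sample per array. The groups were unwounded skin (n = 2), wounds at closure, called day 0 (n = 6), and wounds at day 3 or day 5 after closure that were left uncovered (n = 6 on each day) or covered (n = 5 on each day). All wounds were incision grids kept under 1 layer of Tegaderm, an adhesive film dressing, until closure 2 days after wounding; uncovered wounds then lost the film and covered wounds received 4 further layers. Uncovered wounds were on the right ear and covered wounds on the left, so ear and cover cannot be told apart, and since no label links an array to its animal, the p-values cover only the spread between these samples.

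When skin is cut, keratinocytes at the wound edge turn from building the outer barrier to migrating and dividing, and once they have covered the gap they stratify and take up barrier formation again. Transcripts of the resting epidermis are therefore commonly low while a wound closes and return as the new epidermis matures. An occlusive film keeps the surface hydrated during that time. The array files describe each member as unknown and give a clone or contig name, an assembled stretch of sequenced cDNA, in place of a gene. No gene name is given to any member here, and no epidermal marker could be looked up.

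The members are identified by their 60-base probe sequences, which are written as the array files give them. The sequences below belong to the members with the largest and the smallest regain at day 3, and to a contig where 2 members both fell far at closure. Capitals mark AATAAA, the textbook polyadenylation signal, where the probe holds it.
UF_Ocu_AF_113440: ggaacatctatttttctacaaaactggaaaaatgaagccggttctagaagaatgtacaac
UF_Ocu_AF_113547: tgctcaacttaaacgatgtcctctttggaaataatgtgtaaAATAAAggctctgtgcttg
UF_Ocu_AF_113548: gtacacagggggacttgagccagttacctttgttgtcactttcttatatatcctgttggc
UF_Ocu_AF_112630: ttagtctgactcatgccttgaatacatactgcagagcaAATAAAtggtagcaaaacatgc
UF_Ocu_AF_113899: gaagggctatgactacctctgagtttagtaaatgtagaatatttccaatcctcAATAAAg
UF_Ocu_AF_109104: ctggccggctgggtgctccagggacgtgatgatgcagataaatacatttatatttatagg
UF_Ocu_AF_109105: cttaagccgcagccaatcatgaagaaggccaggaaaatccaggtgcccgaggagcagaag
UF_Ocu_AF_102632: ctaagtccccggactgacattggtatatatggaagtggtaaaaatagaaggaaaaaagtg
UF_Ocu_AF_105079: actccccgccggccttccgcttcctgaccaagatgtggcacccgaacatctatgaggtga
UF_Ocu_AF_106133: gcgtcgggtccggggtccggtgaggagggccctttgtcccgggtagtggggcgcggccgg
UF_Ocu_AF_106134: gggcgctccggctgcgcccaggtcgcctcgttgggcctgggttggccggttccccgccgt
UF_Ocu_AF_109759: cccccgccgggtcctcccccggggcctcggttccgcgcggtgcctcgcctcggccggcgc

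The 55 probes lay on 40 contigs, 15 with 2 members and 25 with 1, so members of a contig are not separate transcripts. No pair of members shared a run of 15 bases. Their share of G and C bases had a median of 45.0% and ran from 35.0% to 86.7%. The 7795 probes of the class with a group mean of at least 9 had a median of 43.3%. AATAAA stood on the printed strand of 8 members (14.5%) against 13.0% of those 7795 probes, and on the opposite strand of 0 members against 4.58%. The members thus held the signal about as often as comparable probes on the printed strand. At least 1 forward reading frame was free of stop codons in 47 members (85.5%) and in 80.5% of comparable probes.

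In the authors' values, which chose the members, the fall at closure ran from 1.501 to 4.01 on the log2 scale with a median of 1.97. The day 5 regain had a median of 2.10 without cover and 2.09 with cover. These samples are bulk tissue, so fewer cells of a type and less RNA per cell cannot be told apart. The members just inside the bound of 1.5 were UF_Ocu_AF_102723, whose smallest of the 3 changes was 1.501, and UF_Ocu_AF_110208 with 1.509. The probes just outside were UF_Ocu_AF_110461 with 1.491 and UF_Ocu_AF_114161 with 1.489. Unless the authors' values are named, the levels that follow come from the scanner files and are log2 units relative to a bright reference point of the same array, the 75th percentile of probes detected on every array.

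Across the 55 members the mean level ran from -3.58 to 5.76 in unwounded skin and from -6.97 to 3.92 at day 0. A total of 42 members were well above background on all 30 arrays. The other 13 were not on 1 or more day 0 arrays, though each was on at least 2 of the 6. UF_Ocu_AF_107722 was the 1 member that also missed an array of another group, an uncovered day 3 array. Arrays of slide 6, unwounded replicate 2 and covered day 5 replicate 1, stood apart from their groups in the median of all 12342 tested probes, at -0.10 and 0.09 relative to day 0 against 0.24 for the other unwounded array and 0.37 to 0.48 for the other covered day 5 arrays. The median of the members on those 2 arrays was 2.58 and 2.55, near the 2.47 of the other unwounded array and the 2.61 to 2.77 of the other covered day 5 arrays.

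The median member on each array gives the course of the set. Relative to the day 0 mean it was 2.53 ± 0.07 (SD, n = 2) in unwounded skin. At day 0 the 6 arrays spread from -0.84 to 0.72. At day 3 it stood at 1.66 ± 0.68 (SD, n = 6) without cover and at 2.03 ± 0.20 (SD, n = 5) with cover. At day 5 it was 2.65 ± 0.15 (SD, n = 6) without cover and 2.66 ± 0.09 (SD, n = 5) with cover. The uncovered day 3 arrays were the widest group after closure. Replicate 5 lay at 0.42, inside the range of day 0, while the other 5 lay between 1.54 and 2.46. Those 5 alone still spanned a wider range than any other group after closure. All covered day 3 arrays, from 1.87 to 2.34, lay above all day 0 arrays. These values include the choice of members, which fixed the low day 0 level and the high levels in unwounded skin and at day 5. In the contrasts that chose them, all 55 members were called lower at day 0 than in unwounded skin (20.2% of tested probes were called lower and 17.1% higher). All 55 were called higher at day 5 than at day 0 without cover (44.1% higher and 21.4% lower among tested probes) and with cover (38.1% higher and 18% lower), and nothing is read from these counts.

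Recovery was already seen at day 3 in both arms. In uncovered wounds 48 of the 55 members were called higher than at day 0 and 0 lower (limma, Benjamini-Hochberg adjusted p under 0.05), where 20.5% of the 12342 tested probes were called higher and 15.1% lower. In covered wounds 50 members were called higher and 0 lower, where 26.3% and 18.2% of tested probes were. Before adjustment the p-value was under 0.05, with a rise, for 50 members in each arm. The median change of the members was 1.57 without cover and 2.04 with cover, against 0.13 and 0.17 for all tested probes. In the authors' values the members' median change was smaller, 1.15 and 1.497. For 12 of the 48 members called in both arms the scanner rise was over 1.5 times the authors' in at least 1 arm, and 10 of these 12 had a day 0 array not well above background. The day 3 arrays entered the choice of members only through the bound on their gap, but the day 0 arrays chose the members, so these tests are not independent of the choice. All 48 members called without cover were among the 50 called with cover, and both comparisons use the same day 0 arrays.

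By array, every uncovered day 3 value lay above every day 0 value for 20 members, where 7.92% of all tested probes did so. Every covered day 3 value lay above every day 0 value for 44 members, where 17.9% of all tested probes did. The same held for 54 members at day 5 without cover (29.7% of tested probes), 54 with cover (20.5%) and 52 in unwounded skin (20.4%), as the choice of members required of their means. Uncovered replicate 5, which lay within the day 0 range, entered the first of these counts, and without that array 51 members were called higher than at day 0. On the slides that held a day 0 and an uncovered day 3 array (2, 7, 10 and 11), 55, 51, 55 and 44 members were higher at day 3, with median changes of 2.24, 1.60, 2.60 and 0.61. Of all tested probes, 60.6%, 48.3%, 64.9% and 47.8% were higher there, with median changes of 0.23, -0.03, 0.27 and -0.02. On the slides with a day 0 and a covered day 3 array (4 and 11), 52 and 55 members were higher, with median changes of 1.63 and 2.02. Among all tested probes 51.9% and 60.7% were higher on these slides, with median changes of 0.05 and 0.19. The same day 0 arrays had chosen the members, so the slide counts are not independent of the choice.

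The share of the fall that a member had regained at day 3 was taken on the log2 scale, as the day 3 level minus the day 0 level over the unwounded level minus the day 0 level. It had a median of 62.9% (quartiles 51.8% and 82.9%) without cover and 83.9% (quartiles 67.0% and 102%) with cover. At least 80% was regained by 16 members without cover and by 29 with cover, 15 of them in both arms. At least 50% was regained by 42 members without cover and by 50 with cover. The share was larger with cover for 49 members. The unwounded arrays were on slides 5 and 6, which held no day 0 array, so the fall in these shares could not be compared within a slide. With scan days numbered by date, the unwounded arrays were of scan days 3 and 1. Day 0 replicate 1 was of scan day 3 and the other day 0 arrays of scan day 2. The part of slide and scan day in the fall was not tested. Between the arms the members lay a median of 0.45 higher with cover at day 3 (from -0.39 to 1.20) and a median of 0.03 higher at day 5 (from -0.52 to 0.54, 29 members higher). Uncovered day 3 replicate 5 enters the day 3 gap: its median member lay at 0.42 relative to day 0. The other uncovered day 3 arrays lay between 1.54 and 2.46, and the covered ones between 1.87 and 2.34. How many of all tested probes lay higher with cover was not counted. The rule itself bounded the gap between the arms on both days, so the gap is given without a test.

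The 5 members with the largest regain at day 3 were named from the authors' values. They were thus picked for a large day 3 regain, and the rule had kept the day 0 level of every member low. The p-values for day 3 rises of single members, here and below, are therefore a description. So is that for the later fall of UF_Ocu_AF_113899, which a pick for high day 3 values favoured. UF_Ocu_AF_113547 and UF_Ocu_AF_113548 lie on the same contig, and the first of them lay at -3.26 and -3.91 in unwounded skin. At day 0 its 6 values ran from -7.39 to -6.20 with a median of -6.88, and 2 of these arrays were well above background. At day 3 the uncovered values ran from -4.92 to -2.95 with a median of -3.10, and the covered values were -2.77, -2.72, -2.72, -2.46 and -3.11. All 11 wounds at day 3 were above all wounds at day 0, and the 5 covered ones were also above both unwounded arrays. The rise from day 0 was 3.20 (SE 0.32, limma adjusted p = 3.28e-08) without cover and 4.10 (SE 0.33, limma adjusted p = 2.45e-10) with cover, and 1.67 and 2.36 in the authors' values. In UF_Ocu_AF_113548, with 3 of 6 day 0 arrays well above background, the rises were 3.02 (SE 0.31, limma adjusted p = 4.26e-08) and 3.89 (SE 0.32, limma adjusted p = 3.40e-10), and 1.80 and 2.49 in the authors' values. The rises of both probes were thus over 1.5 times larger in the scanner values than in the authors' values. From day 3 to day 5 UF_Ocu_AF_113547 differed by 0.67 (SE 0.32, limma adjusted p = 0.0854) without cover and by 0.22 (SE 0.35, limma adjusted p = 0.692) with cover, so neither passed the threshold.

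UF_Ocu_AF_113440 lay at 1.05 and 0.33 in unwounded skin. At day 0 it ran from -1.41 to -0.75 with a median of -1.17. At day 3 it ran from -0.03 to 1.21 with a median of 1.13 without cover, and was 1.35, 1.60, 1.62, 1.63 and 1.11 with cover. The covered wounds were above both unwounded arrays on every array, and no day 3 array overlapped with day 0. It had regained 111% of its fall without cover and 143% with cover, the largest shares of the set. UF_Ocu_AF_112630 had regained 102% and 118%, with rises from day 0 of 2.83 (SE 0.32, limma adjusted p = 2.06e-07) and 3.27 (SE 0.34, limma adjusted p = 1.31e-08).

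UF_Ocu_AF_113899 rose to day 3 and then fell. It lay at -1.16 and -0.78 in unwounded skin and ran from -5.00 to -3.58 at day 0, with a median of -3.90. Its uncovered values at day 3 ran from -1.78 to 0.18 with a median of -0.70, and its covered values were -0.63, -0.06, -0.55, -0.89 and -1.18. At day 5 the uncovered values ran from -2.74 to -1.19 with a median of -1.91, and the covered values were -1.24, -1.31, -2.85, -1.44 and -1.45. Thus every covered array was lower at day 5 than every covered array at day 3, and the uncovered groups overlapped. The change from day 3 to day 5 was -1.18 (SE 0.34, limma adjusted p = 0.00663) without cover, the 1 fall called among the members, and -0.99 (SE 0.37, limma adjusted p = 0.0517) with cover.

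Among the members with the largest falls, UF_Ocu_AF_109104 lay at 0.77 and 0.52 in unwounded skin and ran from -3.87 to -2.22 at day 0 with a median of -2.92. Its fall was 12.8-fold between the group means and 9.27-fold in the authors' values. At day 3 its covered values were 0.41, 0.41, 0.66, 0.32 and 0.45, while its uncovered values ran from -1.80 to 0.31 with a median of 0.14. The covered arrays lay close together, and uncovered replicates 5 and 6, at -1.80 and -0.80, were the lowest of their group. It rose by 2.74 (SE 0.27, limma adjusted p = 3.62e-08) without cover and by 3.48 (SE 0.29, limma adjusted p = 3.15e-10) with cover. The other member of its contig, UF_Ocu_AF_109105, had regained 79.7% and 104% of its fall, against 74.5% and 94.8% for UF_Ocu_AF_109104.

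UF_Ocu_AF_110208 lay at -2.02 and -2.15 in unwounded skin and ran from -7.60 to -5.71 at day 0, with 4 of 6 arrays well above background. Its day 3 rise was 2.75 (SE 0.40, limma adjusted p = 5.12e-06) without cover and 3.43 (SE 0.42, limma adjusted p = 1.61e-07) with cover, against 1.44 and 1.96 in the authors' values. At day 5 it lay below both unwounded arrays on all 11 arrays, by -1.13 (SE 0.56, limma adjusted p = 0.122) without cover and -1.27 (SE 0.58, limma adjusted p = 0.182) with cover, which did not pass the threshold. UF_Ocu_AF_109260 and UF_Ocu_AF_106131 had regained 68.8% and 66.8% of their falls without cover and 64.7% and 57.05% with cover, and they belong to the 6 members with the larger share in the uncovered arm. The unwounded arrays of these 2 probes differed widely, at -0.02 and 1.43 for UF_Ocu_AF_109260 and at -0.30 and 1.66 for UF_Ocu_AF_106131.

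Recovery was not detected at day 3 in either arm for 5 members on 4 contigs: UF_Ocu_AF_102632, UF_Ocu_AF_105079, UF_Ocu_AF_106133, UF_Ocu_AF_106134 and UF_Ocu_AF_109759. These are also the 5 members with the smallest regain in the authors' values. A missed threshold does not show that nothing was regained, and their shares at day 3 ran up to 31.4% without cover and, for UF_Ocu_AF_106133 with cover, up to 56.5%. From day 3 to day 5 all 5 were called higher without cover and all but UF_Ocu_AF_106133 with cover. The choice had required a day 5 level at least 1.5 above day 0, so members near day 0 at day 3 were nearly bound to rise afterwards. Calls and p-values for these later rises, here and in the paragraphs on these 5 members, are therefore a description.

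UF_Ocu_AF_106134 had the largest fall of the set, 26.7-fold between the group means and 16.1-fold in the authors' values. It lay at 1.11 and 0.77 in unwounded skin, and at day 0 its arrays stood at -0.44, -3.62, -6.13, -6.10, -5.29 and -1.21. Day 0 was uneven: replicate 1 lay within the uncovered day 5 range and replicate 6 just below it. At day 3 it ran from -6.17 to -3.46 with a median of -4.96 without cover, and was -5.11, -4.53, -5.69, -3.80 and -3.28 with cover. At day 5 the values ran from -1.03 to 1.32 with a median of 0.43 without cover, and were 0.08, -0.38, -0.34, 0.53 and 0.87 with cover. The day 3 values overlapped with day 0 and every day 5 array lay above every day 3 array of its arm. Its change from day 0 to day 3 was -1.13 (SE 0.75, limma adjusted p = 0.265) without cover and -0.68 (SE 0.79, limma adjusted p = 0.524) with cover. From day 3 to day 5 it rose by 5.21 (SE 0.75, limma adjusted p = 5.90e-06) and 4.63 (SE 0.83, limma adjusted p = 0.000296).

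UF_Ocu_AF_106133, on the same contig, was saturated on both unwounded arrays, so its fall is at least 3.57-fold and its shares regained at day 3 are at most 18.9% without cover and 56.5% with cover. Its day 0 values ran from 1.28 to 5.63. At day 5, 3 arrays in each arm were saturated, so the measured differences from day 3 are lower limits. They were at least 2.43 (limma adjusted p = 0.000521) without cover and at least 1.22 (limma adjusted p = 0.11) with cover, where the arrays at day 5 were 5.33, 6.26, 6.53, 6.36 and 6.40. A call that missed the threshold with cover is therefore no sign of a small rise. The correlation of these 2 probes over the 30 arrays, r = 0.856, was the lowest among the 15 contigs with 2 members, where the median was 0.985; these correlations share the differences between groups.

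UF_Ocu_AF_109759 lay at 5.33 and 5.35 in unwounded skin and ran from 1.48 to 4.27 at day 0 with a median of 3.62. At day 3 it ran from 3.22 to 4.13 without cover with the same median, and was 3.67, 3.76, 3.67, 3.35 and 3.46 with cover. At day 5 it ran from 5.01 to 5.82 without cover with a median of 5.45, and was 5.35, 4.82, 5.10, 5.38 and 5.28 with cover. The day 3 arrays lay within the day 0 range in both arms, and no day 5 array overlapped with them. It had regained 11.2% and 10.9% at day 3, and rose by 1.87 (SE 0.29, limma adjusted p = 1.91e-05) without cover and 1.60 (SE 0.32, limma adjusted p = 0.00109) with cover from day 3 to day 5. The probe was saturated on 1 unwounded and 1 covered day 5 array.

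UF_Ocu_AF_105079 lay at -0.80 and 1.55 in unwounded skin, the widest gap among the members described. Its day 0 values, from -3.35 to -1.47, and its day 3 values, from -2.71 to -0.46 without cover and from -2.51 to -1.08 with cover, overlapped. It rose by 1.43 (SE 0.38, limma adjusted p = 0.00405) without cover and by 1.36 (SE 0.44, limma adjusted p = 0.0289) with cover from day 3 to day 5. Covered day 5 replicate 1 was left out for this probe because of its outlier flag. In the authors' values that array stood at 15.9 while the other 4 lay between 12.5 and 12.9, and it entered the mean that chose the member. Without it the rise from day 0 to covered day 5 was 1.36 in the authors' values, under the bound of 1.5, so UF_Ocu_AF_105079 is a member only through that array. UF_Ocu_AF_111266, the other member with a dropped value, met the rule without it. UF_Ocu_AF_102632 had regained 31.4% and 34.4% of its fall at day 3, and its day 3 changes of 0.53 (SE 0.27, limma adjusted p = 0.141) and 0.58 (SE 0.29, limma adjusted p = 0.105) did not pass. Its rises from day 3 to day 5 were 1.27 (SE 0.27, limma adjusted p = 0.000654) and 1.28 (SE 0.30, limma adjusted p = 0.00397).

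Of the 5 members called in neither arm at day 3, 3 were rich in G and C: UF_Ocu_AF_106133 and UF_Ocu_AF_106134 with 78.3% each and UF_Ocu_AF_109759 with 86.7%. They were the 3 members with the highest share. Whether these 3 probes detect messenger RNA or another kind such as ribosomal RNA was not tested, since no sequence reference was used. A limit of 65%, chosen after these values were seen, was reached by 5 of the 55 members (9.09%) and by 2.90% of the 7795 comparable probes. The other 2 of these 5, UF_Ocu_AF_111266 with 70.0% and UF_Ocu_AF_114142 with 73.3%, had regained 81.2% and 69.0% at day 3 in the mean of both arms. Over the 55 members Spearman's rho between the share of G and C and the day 3 regain was -0.27, and -0.15 over the 50 members under 65%. These are descriptions, since probes of a contig share their transcript and all shares rest on the same arrays. The part of base composition in the day 3 result was not tested.

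UF_Ocu_AF_111266, one of the 3 members described for their unwounded level, had regained most of its fall at day 3. It lay at 4.82 and 5.00 in unwounded skin, from 1.30 to 3.47 at day 0, from 3.13 to 5.08 at day 3 without cover, and at 4.50, 4.56, 4.60, 4.49 and 4.47 at day 3 with cover. No covered day 3 array overlapped with day 0, and 1 uncovered array did. Its rises were 1.91 (SE 0.33, limma adjusted p = 5.47e-05) and 2.05 (SE 0.34, limma adjusted p = 2.13e-05).

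Between day 3 and day 5, 38 members were called higher and 1 lower without cover, where 28.4% of tested probes were called higher and 16.4% lower. With cover 11 members were called higher and 0 lower, where 15.1% and 7.19% of tested probes were. The day 5 arrays had entered the choice of members. The median change of the members was 0.90 and 0.64, against 0.27 and 0.12 for all tested probes. Whether the change from day 3 to day 5 differed between the arms was tested in the same fit, and 0 members were called (limma, 4 at an unadjusted p under 0.05, each with the smaller rise under cover), where 0.0162% of tested probes were called higher and 0.105% lower, so the unequal counts are not shown to be a difference between the arms. The rise was smaller under cover for 50 of the 55 members, with a median difference of -0.44 against -0.08 for all tested probes, and the bounds on the gaps between the arms had limited this difference in the choice of members. The covered count rested on single arrays. It was 6 without covered day 3 replicate 1, 6 without replicate 2 and 5 without replicate 3, 5 without covered day 5 replicates 2 or 3, 6 without replicate 5, and 18 without uncovered day 3 replicate 5.

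Against unwounded skin, 14 members were called lower at day 3 without cover, where 6.1% of tested probes were called lower and 7.6% higher, and 4 with cover, where 0.956% and 1.6% were. The 4 with cover were UF_Ocu_AF_102861, UF_Ocu_AF_105079, UF_Ocu_AF_106134 and UF_Ocu_AF_109759. The unwounded arrays had been chosen to be high, so these counts are a description. At day 5, 0 members were called different from unwounded skin in either arm (limma, 2 without cover and 3 with cover at an unadjusted p under 0.05), where 21.9% of tested probes were called higher and 10.4% lower without cover, and 6.6% and 1.27% with cover. Unwounded skin and day 5 had both been chosen to lie at least 1.5 above day 0, so these day 5 counts are a description too. The median difference was 0.12 without cover and 0.19 with cover, against 0.31 and 0.26 for all tested probes. Relative to all probes the direction turned with the scaling: with quantile normalization the members had a median of 0.02 against -0.04 for all probes without cover, and of 0.13 against 0.04 with cover, and the members were also above all probes with normexp and in the authors' values. Without cover 35 members were above unwounded skin under the main scaling, 28 with quantile normalization, 29 with normexp, 29 in the authors' values and 16 with the percentile over all probes. With 2 unwounded arrays, a p-value that misses the threshold does not show that levels were equal. Without unwounded replicate 1, 1 member was called without cover and 2 with cover, and 1 was called without cover when uncovered day 3 replicate 5 was left out.

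Other probes of the same contigs, which the choice had passed over, describe how far a fall was shared within a contig. They were read on the same day 0 arrays that chose the members, so their directions are not independent of the choice. The 25 contigs with 1 member carried 24 further probes of the class, of which 21 were well above background on at least 2 arrays. In the authors' values all 21 were lower at day 0 than in unwounded skin, by 0.02 to 2.69 with a median of 1.41. All 21 were also higher at day 5 than at day 0 in both arms. The shares of comparable probes that lay in these directions were not counted. In the scanner values the median of all tested probes was -0.02 for day 0 minus unwounded skin. It was 0.47 without cover and 0.33 with cover for day 5 minus day 0. For 5 of the 21 partner probes all 3 changes reached 1.5, and these had been left out by a gap between the arms. One such probe was UF_Ocu_AF_107444, which fell by 2.69 and lay 0.86 higher with cover than without at day 3. The partner of UF_Ocu_AF_102632, UF_Ocu_AF_102633, fell by 1.41 and was 1.86 and 1.83 higher at day 5. The partner of UF_Ocu_AF_105079 disagreed with it: UF_Ocu_AF_105080, well above background on all 30 arrays, differed by 0.02 between unwounded skin and day 0. In the authors' values 16 of the 21 partners fell by 1 or more. UF_Ocu_AF_111267, well above background on all 30 arrays, fell by 0.59 against 2.45 for its member UF_Ocu_AF_111266. UF_Ocu_AF_106679 fell by 0.42 against 2.04 for UF_Ocu_AF_106678. UF_Ocu_AF_111710 fell by 0.88 against 2.08 for UF_Ocu_AF_111711, and UF_Ocu_AF_106307 by 0.96 against 2.23 for UF_Ocu_AF_106306.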

How the data were processed

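Spot intensity in the deposited scanner files came from Agilent Feature Extraction 10.1.1.1, with processed signals and 0 or 1 flags, per the file headers. The deposited series table holds the authors' intensity per probe on a linear scale with column medians from 288 to 293. On the log2 scale each column was correlated with its own scanner file (r from 0.952 to 0.982), which settled scale and direction. How it was normalized and background-corrected is not stated in what was used here, though the submitters' processing notes name limma. The table chose the members and is otherwise an alternative.

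Spots with outlier flags were left out, which dropped 2 member values. Processed signals were put on the log2 scale, averaged per probe, and the 75th percentile of each array, taken over 7446 probes detected (flagged well above background) everywhere, was subtracted. Probes detected on 2 or more arrays, 12342 in all, entered 1 limma 3.58.1 fit (R 4.3.3) over 6 groups and 30 arrays without a block, 2-sided, with Benjamini-Hochberg adjustment within each comparison. The fit was tested on simulated data. Arrays of a group correlated with r from 0.915 to 0.994.

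The members, comparisons and described probes were chosen with earlier results of these data known. Probes were described by a rule: the 5 largest and 5 smallest regains at day 3, the 5 largest falls, the 3 highest unwounded levels, the neighbours of the 1.5 bound, and contigs with 2 members. A further part of the rule, gene matches, could not be applied, as no sequence reference was used. The number of arrays limits the precision. Alternatives were other scalings, background corrections and filters, slide, scan day or replicate number as a block, and leaving out arrays.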

Additional observations from a re-analysis of the deposited data

Results flagged for a closer look

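In the 85 groups of 4 to 6 arrays examined for the described members and for the member median, 4 held an array far from the others, where chance gives about 1 in 20. For UF_Ocu_AF_106133, covered day 5 replicate 1, on slide 6, lay at 5.33 while the nearest other array of its group was at 6.26. For UF_Ocu_AF_109260, day 0 replicate 5 lay at -3.18 with the nearest other array at -2.39, and covered day 5 replicate 4 at -0.26 with the nearest other at 0.43. For UF_Ocu_AF_113899, covered day 5 replicate 3 lay at -2.85 with the nearest other array at -1.45.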

How the results depend on the processing

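The day 3 counts of 48 and 50 members held: over 5 scalings and background corrections the covered count was 50 each time and the uncovered count 47 or 48. Leaving out 1 array at a time gave 45 to 51 members for uncovered and 50 to 52 for covered wounds at day 3 against day 0. The same ranges were 31 to 45 and 5 to 18 for day 5 against day 3, and 0 to 1 and 0 to 2 for day 5 against unwounded skin. The covered count for day 5 against day 3, 11, was 7 with the percentile over all probes, 17 with normexp, 17 with slide as a random block and 5 with dim probes kept. The uncovered count for day 5 against unwounded skin, 0, was 2 with the percentile over all probes, 2 with normexp and 2 with the authors' values. The cause was not tested. Labels number the replicates. Of 63 pairs of same-numbered arrays in different groups 23 deviated together with r over 0.1 (median -0.01), against 107 of 306 differently numbered pairs. No pairing by number was detected, which does not exclude that arrays of the same number share an animal. With the replicate block the 6 counts, in the order above, were 49, 50, 40, 12, 1 and 0. Chosen after seeing the data, leaving out slide 6 gave 48, 50, 39, 14, 0 and 0, and scan day as a block gave 47, 50, 41, 14, 0 and 0. The choice of members itself moved more: the same bounds gave 197 probes on the scanner signals (48 of the 55 among them), 252 with 1.0 and 18 with 2.0 in place of 1.5, 131 without the bounds between the arms, and 57 or 52 with 1 unwounded array, sharing 50 and 47 members. Without outlier-flagged values, also chosen after seeing the data, 54 of the 55 still met the rule. Unwounded skin rests on 2 arrays, and 13 members were not well above background on every day 0 array, which limits the precision of their falls.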
